A study of Mus musculus with 24 samples.

Results

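Cdsn and B4galnt2 were followed across the 6 genotype groups of a mouse spinal cord RNA-seq study. They are 2 of the 38924 genes listed for each library and 2 of the 17410 that passed a filter on low counts, which both passed through the groups where they are high. They were chosen from these same libraries because they were nearly silent in wild-type cord and higher with mutant Gars when Gcn2 was present, so their levels over the genotypes are given as a description, with no test. The study crossed a mutant allele of Gars, P278KY, with a loss of Gcn2 and sequenced whole spinal cord at 8 weeks of age. All animals carried the background B6J;CASTxB6.129. With wild-type Gars there were 4 Gcn2+/+ libraries (3 male, 1 female), 4 Gcn2+/- libraries (3 male, 1 female) and 3 Gcn2-/- libraries (1 male, 2 female). With one mutant copy, GarsP278KY/+, there were 4 Gcn2+/+ libraries (1 male, 3 female), 4 Gcn2+/- libraries (2 male, 2 female) and 5 Gcn2-/- libraries (3 male, 2 female). "Mutant" below means GarsP278KY/+.

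Cdsn encodes corneodesmosin, a secreted adhesive protein of the corneodesmosomes that hold the dead outer cells of the epidermis together. B4galnt2 encodes a Golgi enzyme that adds N-acetylgalactosamine to sialylated glycans to make the Sda/Cad carbohydrate antigen, and it is best known from gut epithelium. Neither is a usual marker of spinal cord cells. The product of Gars is the enzyme that loads glycine onto its tRNAs, and dominant mutations in it underlie a hereditary disease of peripheral axons. Gcn2 (gene symbol Eif2ak4) is a protein kinase activated when charged tRNA runs short or ribosomes stall. It phosphorylates the initiation factor eIF2-alpha, which lowers general translation and raises translation of the transcription factor ATF4, and ATF4 then activates genes of amino acid supply and of the stress response.

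Cdsn (ENSMUSG00000039518) lies on chromosome 17, from 35552128 to 35557180 on the plus strand of GRCm38. B4galnt2 (ENSMUSG00000013418) lies on chromosome 11, from 95865943 to 95914891 on the minus strand. Because the pair moved together, the 250 bases before each gene's RefSeq start (GRCm38.p6) are shown 5′ to 3′ on the gene's strand, in lower case with motif matches in capitals.
Cdsn, chr17:35551878-35552127, plus strand: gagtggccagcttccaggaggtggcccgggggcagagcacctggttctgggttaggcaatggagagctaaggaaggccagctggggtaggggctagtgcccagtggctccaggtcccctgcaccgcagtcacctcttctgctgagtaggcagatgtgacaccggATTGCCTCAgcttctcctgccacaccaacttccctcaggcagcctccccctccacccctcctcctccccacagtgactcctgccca
B4galnt2, chr11:95914872-95915121, minus strand: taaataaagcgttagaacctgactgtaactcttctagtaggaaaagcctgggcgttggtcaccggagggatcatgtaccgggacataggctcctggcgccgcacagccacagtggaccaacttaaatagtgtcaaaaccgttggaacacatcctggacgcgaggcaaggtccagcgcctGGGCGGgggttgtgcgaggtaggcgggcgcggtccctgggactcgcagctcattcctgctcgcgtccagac
The capitals in Cdsn mark a match with 1 mismatch to TGATGCAAT, a sequence bound by ATF4 with its partners. The match is on the opposite strand, at -86 to -78 from the start, and reads TGAGGCAAT, with the substitution T4G (motif base, position from 1 at the motif's 5′ end, genome base). The capitals in B4galnt2 mark GGGCGG, at -71 to -66. The motifs searched on both strands were TGATGCAAT with up to 1 mismatch, and, without mismatch, the CCAAT box, the cyclic AMP response element TGACGTCA, the TATA box as TATAAA and the GC box as GGGCGG; the overlap of one motif with another was allowed. No other match to these letters lay in either window. Among 32841 RefSeq promoter windows of this length, 3.77% held TGATGCAAT with up to 1 mismatch, 0.167% held it exactly, 33.9% held the CCAAT box, 1.55% the cyclic AMP response element, 12.4% the TATA box and 32.7% the GC box. GC content was 64.0% in the Cdsn window and 58.4% in the B4galnt2 window, against a median of 52.4% over all windows. The CpG counts were 3 and 18. RefSeq also lists a second Cdsn start farther upstream (window 35542851 to 35543100), whose 250 bases held no match.

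The libraries held 19.73 to 32.39 M estimated counts, with group means from 21.4 to 28.2 M. Eif2ak4 averaged 31.2 ± 2.39 CPM (SD, n = 4; CPM here being counts scaled to library size with TMM factors) in Gcn2+/+ Gars+/+ cord, 22.7 ± 0.894 (n = 4) in Gcn2+/- Gars+/+ and 13.6 ± 1.91 (n = 3) in Gcn2-/- Gars+/+ cord, in the order of the labels. Transcripts of Eif2ak4 were therefore still counted in Gcn2-/- cord. The P278KY allele changes the protein, so the level of Gars checks no label. Some libraries stood apart in genes of Schwann cells and meninges. The mean log2(CPM + 0.5) of 13 Schwann cell and nerve root genes was 3.31 to 3.46 in Gcn2+/+ Gars+/+ cord but 5.8 and 6.36 in Gcn2+/+ mutant replicates 2 and 4, 5.67 and 6.07 in Gcn2+/- Gars+/+ replicates 1 and 3, and 4.8 in Gcn2+/- mutant replicate 4. These 5 are called Schwann-high below. Gcn2+/+ mutant replicate 3, at 4.11, and Gcn2-/- mutant replicate 5, at 3.92, were also above the Gcn2+/+ Gars+/+ range. By smaller margins so were Gcn2+/+ mutant replicate 1 (3.54), Gcn2+/- Gars+/+ replicates 2 and 4 (3.61 and 3.59) and Gcn2-/- mutant replicate 2 (3.49).

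Cdsn was close to silent in the 16 libraries that lacked either the mutation or Gcn2, and present in all 8 mutant libraries with 1 or 2 copies of Gcn2. In Gcn2+/+ Gars+/+ cord the 4 libraries held 5, 6, 6 and 8 counts, or 0.192, 0.213, 0.226 and 0.267 CPM. In Gcn2+/+ mutant cord they held 63, 96, 130 and 87 counts, or 2.24, 3.16, 4.4 and 3.3 CPM. The lowest mutant library was thus far above the highest wild-type one. The mean was 0.225 ± 0.0317 CPM in wild type (SD, n = 4) and 3.27 ± 0.885 CPM in mutants (n = 4), a ratio of 14.6. The fitted log2 fold change was 3.59 ± 0.38 (SE). The ratio of the summed counts, 376 against 25, was 14.5 after scaling, with an exact 95% interval of 9.69 to 22.8 that covers counting error only.

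With 1 functional copy of Gcn2 the Cdsn level in mutants was intermediate. The Gcn2+/- Gars+/+ libraries held 3, 4, 7 and 8 counts, or 0.137, 0.191, 0.3 and 0.408 CPM. The Gcn2+/- mutant libraries held 33, 20, 28 and 32 counts, or 1.28, 0.79, 1.39 and 1.18 CPM. These groups did not overlap, and every Gcn2+/- mutant library was also below every Gcn2+/+ mutant library. The means were 0.259 ± 0.12 and 1.16 ± 0.261 CPM (SD, n = 4 each), and the fitted log2 fold change was 2.05 ± 0.37 (SE). The increase in CPM was 29.6% ± 6.38 (SEM) of that in Gcn2+/+ mice.

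Without Gcn2, Cdsn stayed at 11 counts or fewer in mutants as well. The Gcn2-/- Gars+/+ libraries held 5, 9 and 10 counts, or 0.249, 0.336 and 0.319 CPM. The Gcn2-/- mutant libraries held 8, 4, 4, 1 and 11 counts, or 0.248, 0.152, 0.147, 0.0376 and 0.4 CPM. Of the 5 mutants, 4 were below all 3 Gcn2-/- Gars+/+ libraries in CPM and 1 was above them. For 1 of those 4 the gap was 0.248 against 0.249 CPM, at 8 against 5 counts, so no direction is read from this order. The means were 0.301 ± 0.0459 (SD, n = 3) and 0.197 ± 0.136 CPM (n = 5), so the ranges overlapped. The fitted log2 fold change was -0.46 ± 0.41 (SE), and it differed from that in Gcn2+/+ mice by -4.04 ± 0.57. With wild-type Gars the loss of Gcn2 gave a Cdsn log2 difference of 0.21 ± 0.43 for Gcn2-/- and 0.18 ± 0.40 for Gcn2+/-, both within 1 SE.

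**Figure D1:**
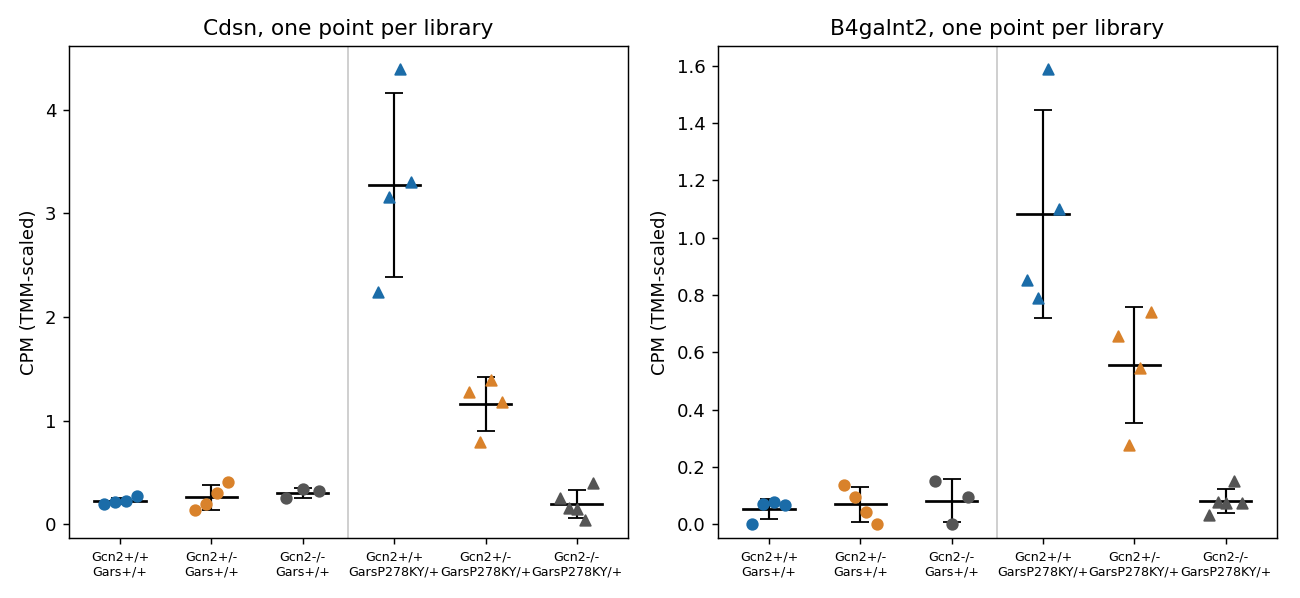
CPM of Cdsn (left) and B4galnt2 (right) in each library by genotype group; horizontal bars are group means and error bars are 1 SD (n = 3 to 5). Circles are wild-type Gars and triangles GarsP278KY/+. For both genes the triangles of Gcn2+/+ and Gcn2+/- lie above all other points.

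B4galnt2 was also highest in Gcn2+/+ mutants and next in Gcn2+/- mutants, at lower counts. In Gcn2+/+ Gars+/+ cord the 4 libraries held 0, 2, 2 and 2 counts, or 0, 0.0709, 0.0755 and 0.0669 CPM. In Gcn2+/+ mutant cord they held 24, 24, 47 and 29 counts, or 0.852, 0.79, 1.59 and 1.1 CPM. Here too every mutant library was above every wild-type library. The means were 0.0533 ± 0.0357 and 1.08 ± 0.363 CPM (SD, n = 4 each), a ratio of 20.3, and the fitted log2 fold change was 4.12 ± 0.65 (SE). The summed counts were 124 against 6, and their scaled ratio had an exact 95% counting interval of 8.92 to 55.5, which again covers counting error only. The width of that interval comes from the 6 counts in wild type.

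In Gcn2+/- cord, B4galnt2 had 3, 2, 1 and 0 counts with wild-type Gars and 17, 7, 11 and 20 with the mutation. In CPM these were 0.137, 0.0953, 0.0429 and 0 against 0.658, 0.277, 0.546 and 0.739, with no overlap. The means were 0.0687 ± 0.0598 and 0.555 ± 0.202 CPM (SD, n = 4 each), and the fitted log2 fold change was 2.85 ± 0.66 (SE). The increase was 47.2% ± 13.2 (SEM) of that in Gcn2+/+ mice. The gap between the mutant groups was narrow for B4galnt2, since the lowest Gcn2+/+ mutant library stood at 0.79 CPM and the highest Gcn2+/- mutant library at 0.739 CPM. Their log2 difference was -0.91 ± 0.49 (SE), against -1.36 ± 0.32 for Cdsn.

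In Gcn2-/- cord, B4galnt2 had 3, 0 and 3 counts with wild-type Gars and 1, 2, 2, 4 and 2 with the mutation. The CPM values were 0.15, 0 and 0.0956 against 0.031, 0.0759, 0.0734, 0.151 and 0.0727, and the groups overlapped. The means were 0.0817 ± 0.0757 (SD, n = 3) and 0.0807 ± 0.0433 CPM (n = 5). The fitted log2 fold change was 0.06 ± 0.79 (SE), and it differed from that in Gcn2+/+ mice by -4.06 ± 1.11. It was 0.79 without Gcn2-/- Gars+/+ replicate 1 and -0.54 without replicate 2, so no direction can be read at 6 and 11 summed counts.

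Ordered by mean CPM, both genes ran from Gcn2+/+ mutants to Gcn2+/- mutants and then to the other 4 groups, which overlapped one another in every pair for both genes. Over the 16 libraries of those 4 groups Cdsn had 1 to 11 counts (median 6) and B4galnt2 0 to 4 (median 2), with B4galnt2 at 0 in 3 of them. The 8 mutant libraries with Gcn2 held 20 to 130 and 7 to 47 counts. Of the 17410 genes tested, 6 (0.0345%) had all 8 of these libraries above all 16 others: Adm2, B4galnt2, Cdsn, Fgf21, P2rx3 and Pck2. The rule that chose Cdsn and B4galnt2 used this pattern, so nothing is read from their place in that count. In the single contrasts, every mutant library was above every wild-type Gars library for 4.06% of tested genes in Gcn2+/+, 3.77% in Gcn2+/- and 2.11% in Gcn2-/- mice. Every Gcn2+/+ mutant library was above every Gcn2+/- mutant library for 2.93% of tested genes.

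**Figure D2:**
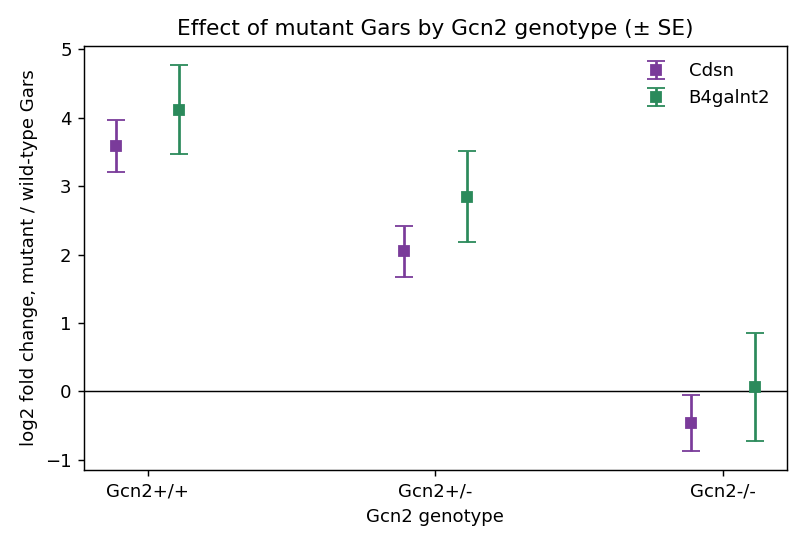
Fitted log2 fold change of mutant over wild-type Gars for Cdsn and B4galnt2 in Gcn2+/+, Gcn2+/- and Gcn2-/- mice; points are estimates and bars 1 SE. Cdsn runs from 3.59 through 2.05 to -0.46, and B4galnt2 from 4.12 through 2.85 to 0.06.

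Even where they were high, both were low-abundance transcripts. On the TPM scale, which accounts for transcript length, Cdsn averaged 2.44 TPM in Gcn2+/+ mutants and 0.158 in Gcn2+/+ Gars+/+ cord. B4galnt2 averaged 1.33 and 0.0625 TPM in the same groups. In Gcn2+/+ mutants the Cdsn level was above 21.4% of tested genes and the B4galnt2 level above 14.7%, where the median tested gene stood at 14.3 TPM. In Gcn2+/+ Gars+/+ cord these shares were 1.38% and 0.264%. Cdsn was thus the more abundant of the pair per length, with a Cdsn to B4galnt2 ratio of TPM of 1.87 ± 0.373 (SD, n = 4; 1.58 to 2.41) in Gcn2+/+ mutants. The ratio was 1.35 ± 0.341 (n = 4; 0.966 to 1.72) in Gcn2+/- mutants, and the ranges overlapped.

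The mutant libraries that were high in one gene were high in the other. Across the 8 mutant libraries with Gcn2, log2 CPM of Cdsn and B4galnt2 had a Pearson correlation of 0.89 and a Spearman correlation of 0.88. These libraries share 2 Gcn2 genotypes with different means. Gcn2+/+ mutant replicate 3 was highest for both genes, with 130 and 47 counts, and Gcn2+/- mutant replicate 2 was lowest, with 20 and 7. In the 16 other libraries both correlations were -0.53, at 0 to 11 counts, from which nothing is read.

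**Figure D3:**
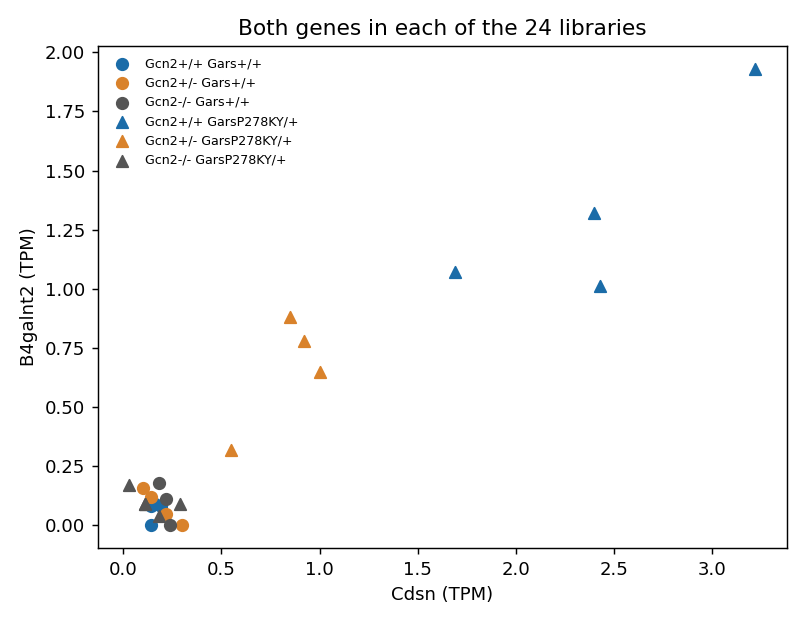
B4galnt2 against Cdsn in TPM, 1 point per library (24 in all), coloured by Gcn2 genotype, with triangles for GarsP278KY/+. The Gcn2+/+ and Gcn2+/- mutants spread upward along both axes, and the 16 other libraries lie together near the origin.

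Sex was the one contrast that the choice of the genes did not use. Cdsn had a male minus female log2 difference of -0.47 ± 0.23 (SE; edgeR adjusted p = 1), and B4galnt2 one of -0.18 ± 0.40 (edgeR adjusted p = 1). The mean CPM of Cdsn was lower in males in all 6 groups. In Gcn2+/+ mutants, for example, the 1 male stood at 2.24 CPM and the 3 females at 3.16 to 4.4 CPM. Over 30 alternative settings the Cdsn difference ran from -0.607 to -0.329, and the edgeR or DESeq2 adjusted p from 0.916 to 1. Neither gene was called, against 14 tested genes (0.0804%) called for sex, 7 in each direction (0.0402%).

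The titles carry a number shared by 1 to 6 libraries, whose meaning the labels do not give. Within each number that held both kinds, the mutants with Gcn2 were above the other libraries for both genes. That order was fixed in advance, since all 8 such mutants lay above all 16 other libraries, so nothing is read from it. Number 25801 held 1 Gcn2+/+ wild-type library and 1 Gcn2+/+ mutant library, both female, with 8 and 96 counts of Cdsn and 2 and 24 of B4galnt2. Number 25102 held 2 Gcn2+/+ Gars+/+, 2 Gcn2+/- mutant and 2 Gcn2-/- mutant libraries. Cdsn stood at 0.192 to 0.213, 1.28 to 1.39 and 0.0376 to 0.248 CPM in these, and B4galnt2 at 0 to 0.0709, 0.546 to 0.658 and 0.031 to 0.151 CPM. In number 24905, Cdsn stood at 2.24 and 4.4 CPM in 2 Gcn2+/+ mutants, 0.79 in 1 Gcn2+/- mutant and 0.336 in 1 Gcn2-/- Gars+/+ library.

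Adm2 and Fgf21, which encode secreted hormones, had the pattern most like both. Likeness was the Pearson correlation of log2 CPM over all 24 libraries, which share the same genotype groups. For Cdsn it was 0.94 with Adm2 and 0.94 with Fgf21, followed by P2rx3 (0.89), Taf7l (0.87), Pck2 (0.86), B4galnt2 (0.85), Slc7a1 (0.84), Gdf15 (0.83), Avil (0.82) and Sesn2 (0.82). For B4galnt2 it was 0.93 with Adm2 and 0.93 with Fgf21, followed by Gdf15 (0.88), Stbd1 (0.88), P2rx3 (0.86), Cdsn (0.85), Slc7a1 (0.82), Avil (0.82), Sesn2 (0.81) and Chac1 (0.80). The lists of 10 shared 7 genes. With Spearman in place of Pearson, 4 of the 10 for Cdsn and 5 of the 10 for B4galnt2 were kept.

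Adm2, which encodes adrenomedullin 2, summed to 1 count in the 4 Gcn2+/+ Gars+/+ libraries, 112 in Gcn2+/+ mutants, 41 in Gcn2+/- mutants and 0 in the other 3 groups. Fgf21, a hormone induced by metabolic stress, summed to 452 counts in Gcn2+/+ mutants, 197 in Gcn2+/- mutants and 1 in each other group. Cdsn and B4galnt2 differed from these in having a few counts in nearly every silent library. Among the 8 mutants with Gcn2 alone, Cdsn correlated at 0.93 with Fgf21, 0.90 with Adm2 and 0.90 with Avil. Pck2, the mitochondrial phosphoenolpyruvate carboxykinase, correlated with Cdsn at 0.19 in those 8. It moved little in size, from 19.1 ± 0.968 to 22.1 ± 0.997 CPM (SD, n = 4 each) in Gcn2+/+ cord.

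P2rx3, an ATP-gated channel of sensory neurons, stood at 1.39 ± 0.347 CPM in Gcn2+/+ Gars+/+ cord and 4.76 ± 0.84 in Gcn2+/+ mutants (SD, n = 4 each). It was at 2.99 ± 0.83 CPM (n = 4) in Gcn2+/- mutants and 1.52 ± 0.212 (n = 5) in Gcn2-/- mutants. Avil, which encodes the actin-binding protein advillin of sensory neurons, averaged 0.362 ± 0.0192 CPM in Gcn2+/+ Gars+/+ cord and 1.95 ± 1.05 in Gcn2+/+ mutants (n = 4 each). They were the 2 sensory neuron markers called by edgeR among 5 tested in Gcn2+/+ mice, against 0.213% of all tested genes called higher, and the median log2 fold change of all 5 was -0.04. Without the 2 Schwann-high mutant libraries P2rx3 alone was called. In Gcn2+/- mice P2rx3 alone was called, against 0.0517%, and no marker was without Gcn2+/- Gars+/+ replicate 2 or without the 3 Schwann-high libraries. DESeq2 called P2rx3 in Gcn2+/+ mice, and it gave no adjusted p to Avil there or to either gene in Gcn2+/- mice. Among the 10 genes of these lists, other than the pair itself, that had a promoter window, 4 held TGATGCAAT with up to 1 mismatch (Avil, Chac1, Fgf21 and Gdf15), against 4.37% of all genes. Only Fgf21 among them held it exactly.

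Among known targets of ATF4 and the integrated stress response, a minority were called higher with mutant Gars, most by less than the pair. In Gcn2+/+ mice 9 of 52 tested members rose and 0 fell (edgeR, adjusted p below 0.05), against 0.213% of all tested genes called higher. Before adjustment (edgeR p below 0.05), 26 were higher and 1 lower, against 8.26% and 9.01% of all tested genes. The fold change was above 0 for 43 of the 52, against 52.7% of all tested genes. The list's median log2 fold change was 0.24, against 0.01 for all genes. The list was chosen with earlier results of these data known. The 9 were Fgf21, Adm2, Sesn2, Atf4, Slc1a4, Nupr1, Wars, Shmt2 and Cars. Sesn2, an inhibitor of growth signalling under amino acid shortage, rose by a log2 of 0.63 ± 0.09 (edgeR adjusted p = 0.00102), from 17.8 ± 0.9 to 27.8 ± 3.84 CPM. Atf4 itself rose by 0.44 ± 0.07 (edgeR adjusted p = 0.00195). Cars and Wars, which charge tRNA with cysteine and tryptophan, rose by 0.32 ± 0.07 and 0.24 ± 0.05.

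In Gcn2+/- mice 2 of 52 rose, Fgf21 and Adm2, against 0.0517% of all genes called higher, and the list's median was 0.17. DESeq2 called 5 others (Cars, Ero1l, Mars, Slc1a4 and Slc7a1) of 42 members there and gave Fgf21 and Adm2 no adjusted p. Before adjustment (edgeR p below 0.05), 23 were higher and 1 lower there, against 7.97% and 6.75% of all tested genes. The fold change was above 0 for 43 of the 52, against 47.3% of all tested genes. In Gcn2-/- mice 0 of 52 were called by edgeR or by DESeq2, and 8 were higher and 0 lower before adjustment (p below 0.05). Of all tested genes, 2.44% were higher before adjustment there. The fold change was above 0 for 40 of the 52, against 50.9% of all tested genes. The median of the list was 0.12, where 2 genes in all were called (0.0115%). In Gcn2+/+ mice the count of 9 was 4 (Adm2, Atf4, Fgf21 and Sesn2) without the 2 Schwann-high mutant libraries. It was 4 without Gcn2+/+ Gars+/+ replicate 2 or replicate 3, and 5 without Gcn2+/+ Gars+/+ replicate 4 or mutant replicate 2. In Gcn2+/- mice the count of 2 was 1 without the 3 Schwann-high libraries, and 1 without Gcn2+/- mutant replicate 3 or 4 or Gcn2+/- Gars+/+ replicate 1 or 2. Of 43 list genes with a promoter window, 14 (32.6%) held TGATGCAAT with up to 1 mismatch, as the Cdsn window did and the B4galnt2 window did not.

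Other genes of the cornified layer were low or were not called. Of 33 genes of corneodesmosomes and the cornified envelope, 15 passed the filter and edgeR called 0 in each Gcn2 genotype (all tested genes: 0.632%, 0.178% and 0.0115%). Before adjustment, 4 had a p below 0.05 and were higher in Gcn2+/+ mice, 2 were lower in Gcn2+/- and 1 was higher in Gcn2-/-. Of all tested genes, 8.26% were higher and 9.01% lower before adjustment in Gcn2+/+ mice, 7.97% and 6.75% in Gcn2+/-, and 2.44% and 1.91% in Gcn2-/-. DESeq2 called 0 of the 11, 4 and 15 members to which it gave an adjusted p. The medians were 0.21, -0.11 and -0.15. Fold changes were above 0 for 12, 3 and 4 of the 15, against 52.7%, 47.3% and 50.9% of all tested genes. The smallest p in Gcn2+/+ mice belonged to the desmosomal linker Dsp, with a log2 of 0.93 ± 0.36 (edgeR adjusted p = 0.188), and to Ppl, which encodes periplakin, with 1.13 ± 0.45 (edgeR adjusted p = 0.202). Of the structural partners of corneodesmosin, Dsg1a, a desmosomal cadherin, held 0 to 2 counts over the 24 libraries and Dsc1, another, 0 to 6. Of the proteases that cleave corneodesmosin, Klk5 held 0 to 1 count and Klk7 0 to 3. Other members of the list were not low in Gcn2+/+ Gars+/+ cord, with means of 101 CPM for Ctsl, 78.0 for Klk6 and 52.1 for Jup.

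Keratinocyte markers had overlapping summed levels in Gcn2+/+ mice with and without the mutation. The summed CPM of 15 markers was 17.0 to 31.8 in Gcn2+/+ Gars+/+ cord and 23.1 to 28.5 in Gcn2+/+ mutant cord. None of the 7 tested was called there by edgeR or DESeq2, where edgeR called 0.632% of all tested genes. Krt1 alone was higher before adjustment (edgeR p below 0.05), against 8.26% of all tested genes. The defining basal keratins were near 0 in every library, with Krt5 at 0 to 2 counts, Krt14 at 0 to 4 and Krt15 at 0 to 1. The 7 tested markers were present in every library. Sbsn held 124 to 320 counts, Trp63 107 to 305, Perp 46 to 132, Krt10 45 to 107, Sfn 12 to 104 and Dmkn 13 to 47. In Gcn2+/+ mutants Krt15 and Calml3 were at 0 in all 4 libraries. Krt1 held 48 to 99 counts in Gcn2+/+ mutants and 29 to 54 in wild type, with a log2 of 0.56 ± 0.23 (edgeR adjusted p = 0.216).

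Of 29 other tested genes that build gangliosides and related glycans, edgeR called 0 in each Gcn2 genotype (all tested genes: 0.632%, 0.178% and 0.0115%), with medians of -0.01, -0.04 and -0.01. Before adjustment, at a p below 0.05, 1 was higher and 3 lower in Gcn2+/+ mice, 4 and 2 in Gcn2+/-, and 1 and 0 in Gcn2-/-, where 17.3%, 14.7% and 4.35% of all tested genes passed in either direction. DESeq2 called 1 lower of the 27 to which it gave an adjusted p in Gcn2+/+ mice, St8sia1, 1 lower of 25 in Gcn2+/-, St6gal1, and 0 of 29 in Gcn2-/-. St8sia1, the sialyltransferase that makes GD3 ganglioside, had a log2 of -0.31 ± 0.08 in Gcn2+/+ mice (edgeR adjusted p = 0.0641). The paralogs of B4galnt2 were present in every library. B4galnt1, which makes GM2 and GD2 gangliosides, averaged 47.8 ± 3.65 CPM in Gcn2+/+ Gars+/+ cord and 49.5 ± 4.01 in mutants (SD, n = 4 each). B4galnt4 averaged 26.8 ± 3.02 and 28.4 ± 1.86 CPM, and B4galnt3 0.59 ± 0.126 and 0.633 ± 0.193. Their log2 fold changes were 0.07 ± 0.09, 0.09 ± 0.08 and 0.17 ± 0.38.

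Of the gut and simple epithelium markers, Tff3 and Cdx2 were at 0 in all 24 libraries, and 5 of 15 passed the filter. Their summed CPM was 2.54 to 3.59 in Gcn2+/+ Gars+/+ cord and 3.69 to 29.3 in Gcn2+/+ mutants, and in Gcn2+/- mice 2.38 to 22.1 with wild-type Gars and 2.53 to 5.84 in mutants. The top of the range came from Cdh1, an adhesion protein, at 9 to 655 counts in Gcn2+/+ mutants and 3 to 6 in wild type. In edgeR 0 of 5 were called in Gcn2+/+ mice, against 0.632% of all tested genes, and 1 was higher before adjustment, against 8.26%. DESeq2 called Cdh1 of the 2 to which it gave an adjusted p. In Gcn2+/- mice edgeR called 0, against 0.178%, 1 was lower before adjustment, against 6.75%, and DESeq2 gave no adjusted p.

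**Figure D4:**
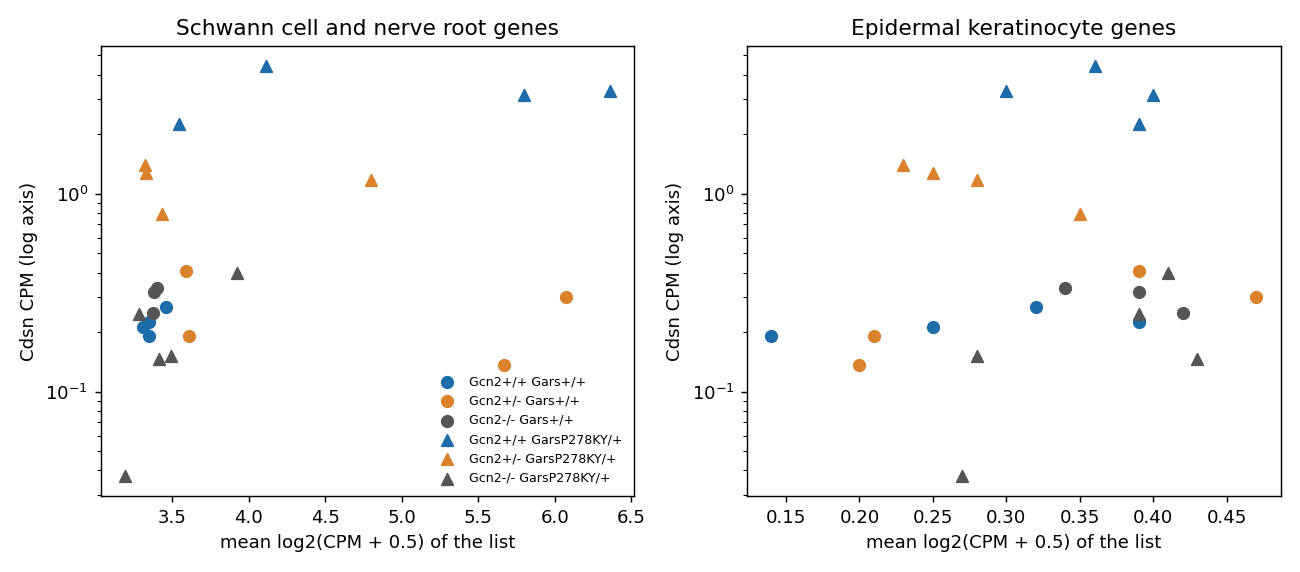
Cdsn CPM (log axis) against the mean log2(CPM + 0.5) of 13 Schwann cell and nerve root genes (left) and of 15 epidermal keratinocyte genes (right), 1 point per library, coloured by Gcn2 genotype with triangles for GarsP278KY/+. Gcn2+/- Gars+/+ libraries at 5.67 and 6.07 on the left axis have Cdsn at 0.137 and 0.3 CPM, and Gcn2+/- mutants at 3.32 to 3.43 have 0.79 to 1.39 CPM.

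Schwann cell and meningeal genes leaned in opposite directions in Gcn2+/+ and Gcn2+/- mice. The medians of the Schwann cell list were 1.79 in Gcn2+/+ and -1.20 in Gcn2+/- mice. Cdsn and B4galnt2 were chosen for being higher with mutant Gars when Gcn2 was present, so nothing is read from their direction here. The part of nerve root or meningeal tissue in their levels was not tested. EdgeR called 0 of 13 Schwann cell genes in either comparison, against 0.632% of all tested genes in Gcn2+/+ and 0.178% in Gcn2+/- mice. Before adjustment, 8 were higher in Gcn2+/+ and 7 lower in Gcn2+/- mice, against 8.26% and 6.75% of all tested genes. DESeq2 called 6 of 13 higher and 3 of 10 lower. The 12 tested genes of meninges and fibroblasts had medians of 2.07 and -1.48, with 0 called by edgeR, 8 higher and 3 lower before adjustment, and 4 and 0 called by DESeq2, of 11 and 9 with an adjusted p. Without Gcn2+/+ mutant replicates 2 and 4 the log2 fold changes were 3.68 ± 0.42 for Cdsn and 4.29 ± 0.71 for B4galnt2. Mutant replicate 3, at a Schwann cell mean of 4.11, stayed in that fit. Without the 3 Schwann-high Gcn2+/- libraries the log2 fold changes in Gcn2+/- mice were 2.05 ± 0.50 and 3.22 ± 0.97.

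Motor neuron genes fell in the mutants where Cdsn and B4galnt2 were high, and 2 also fell in Gcn2-/- mutants, where the pair stayed low. Of 17 tested, 11 fell and 0 rose in Gcn2+/+ mice, against 0.419% of all genes called lower. In Gcn2+/- mice 8 fell, against 0.126%, and in Gcn2-/- mice 2 fell, Calca and Calcb, against 0.0115%. The count of 8 was 2 (Calca and Prph) without the 3 Schwann-high libraries. In Gcn2-/- mice leaving out any one library other than mutant replicate 5 left only Calca. Chat, the enzyme that makes acetylcholine, fell from 21.8 ± 1.45 to 14.7 ± 0.796 CPM in Gcn2+/+ mice, a log2 of -0.55 ± 0.07 (edgeR adjusted p = 0.000378). Calca, which encodes calcitonin gene-related peptide, fell in all 3 Gcn2 genotypes, by a log2 of -2.25 ± 0.19, -1.88 ± 0.19 and -1.96 ± 0.19. The summed CPM of the list was 5150 to 5750 in Gcn2+/+ Gars+/+ cord and 3230 to 3910 in Gcn2+/+ mutants. It was 4860 to 5670 in Gcn2+/- Gars+/+ cord and 3730 to 4470 in Gcn2+/- mutants. In Gcn2-/- cord it was 5010 to 5340 with wild-type Gars and 4540 to 5010 in mutants. The list's mean log2(CPM + 0.5) was 4.74 to 4.87 in Gcn2-/- Gars+/+ cord and 4.55 to 4.63 in Gcn2-/- mutants, with no overlap. In bulk cord, fewer cells of a type and less RNA per cell cannot be told apart, and the part of motor neurons in the levels of Cdsn and B4galnt2 was not tested.

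Injury genes of neurons were called in no Gcn2 genotype by edgeR (all tested genes: 0.632% in Gcn2+/+, 0.178% in Gcn2+/- and 0.0115% in Gcn2-/- mice). Of 17 tested, the numbers higher before adjustment were 3 in Gcn2+/+, 1 in Gcn2+/- and 0 in Gcn2-/- mice, where 8.26%, 7.97% and 2.44% of all tested genes were. DESeq2 called 0 of 15, 1 of 13 (Hrk) and 0 of 17 with an adjusted p. The medians were 0.11, 0.04 and 0.01. Fold changes were above 0 for 16, 9 and 11 of the 17, against 52.7%, 47.3% and 50.9% of all tested genes. Atf3, the classic transcription factor of axon injury, averaged 0.974 ± 0.371 CPM in Gcn2+/+ Gars+/+ cord and 1.49 ± 0.288 in mutants (SD, n = 4 each; edgeR adjusted p = 0.564). The tested markers of microglia (12), astrocytes (8) and endothelium and blood (10) also had 0 called by edgeR in Gcn2+/+ mice. Before adjustment these lists held 0 microglial genes, 3 higher and 1 lower astrocytic genes and 1 lower endothelial gene. A single astrocytic gene was lower by DESeq2.

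No tested gene around the pair was called. Within 100 kb of Cdsn, 5 protein-coding genes were tested (H2-Q10, Tcf19, Cchcr1, Psors1c2 and Vars2), and within 100 kb of B4galnt2, 4 were tested (Zfp652, Phospho1, Abi3 and Gngt2). EdgeR called none of the 9 in any Gcn2 genotype, nor did DESeq2 among the 7, 6 and 9 to which it gave an adjusted p. Of all tested genes, edgeR called 0.632% in Gcn2+/+, 0.178% in Gcn2+/- and 0.0115% in Gcn2-/- mice. Abi3 alone had a p below 0.05 before adjustment, in Gcn2+/+ and in Gcn2+/- mice. Psors1c2, the closest tested gene upstream of Cdsn, at 35533201 to 35534647, held 0 to 14 counts, with a log2 of -0.15 ± 0.88 in Gcn2+/+ mice. Abi3, an actin regulator of immune cells, had a log2 of 0.41 ± 0.15 in Gcn2+/+ and -0.34 ± 0.14 in Gcn2+/- mice. The one annotated gene that overlaps either of the pair is Gm11534, antisense within B4galnt2, at 0 to 2 counts in every library.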

How the data were processed

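RNA was prepared by poly(A) selection and sequenced as paired-end 75-base reads, per the labels' protocols, which name 2 library kits without saying which library had which. The authors deposited RSEM expected counts, TPM and FPKM for each gene of 24 libraries. The submitters' processing notes name RSEM 1.2.12 and Bowtie2 2.2.0. For the build, the annotation and the strand setting of the counting: not given in the sources used here. FPKM values deposited by the authors were not used. TPM values deposited by the authors served to compare levels between genes. Gene symbols and positions came from GENCODE M21 (37607 of 38924 identifiers matched, and 0.26% of counts fell on the rest).

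Expected counts were rounded and tested with edgeR 4.0.16 (TMM, filterByExpr, robust quasi-likelihood fit on genotype group and sex, all 24 libraries), with Benjamini-Hochberg adjustment over 17410 genes and calls below 0.05. Log2 CPM used a prior count of 2. Alternatives were DESeq2 1.42.0, no TMM, no filter, no sex term, the title number as a block, the 2 groups alone, and each library left out. Promoters came from RefSeq (GRCm38.p6), limited to the 250 bases before each start.

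The pair and the gene lists were chosen with earlier results of these data known. Named genes are the pair, Eif2ak4 and Gars, the 10 genes most correlated with each, neighbours within 100 kb, paralogs, corneodesmosome genes, and of each list up to 4 of smallest p in Gcn2+/+ mice and any called. Krt1, Krt5, Krt10, Krt14, Krt15, Calml3, Sbsn, Trp63, Perp, Sfn, Dmkn, Tff3, Cdx2, Cdh1, Atf3, Chac1, Ctsl, Klk6 and Jup were named from the lists after their values were seen. So were genes called by DESeq2 alone. Replicate numbers follow accession order and pair nothing. The labels do not say in words that libraries are separate animals, so p-values measure the spread between libraries.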

Additional observations from a re-analysis of the deposited data

Results flagged for a closer look

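Among 20 groups checked for a library apart from the rest, 2 had one, where chance gives about 1 in 20. B4galnt2 in Gcn2+/+ Gars+/+ replicate 1 was at 0.0 CPM (0 counts), against 0.0669 to 0.0755 CPM (2 counts each) in the other 3 libraries. At this depth a count of 0 allows up to 3 counts, so 0 and 2 counts are not distinguishable. Gars in the same library, Gcn2+/+ Gars+/+ replicate 1, was at 134.0 CPM, against 141.0 to 142.0 CPM in the other 3 libraries.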

How the results depend on the processing

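The log2 fold changes of both genes kept their direction and moved by less than the spread between replicates under every alternative that gave a value in Gcn2+/+ mice (15 each, 3.47 to 3.83 for Cdsn and 3.78 to 4.45 for B4galnt2) and Gcn2+/- mice (15, 1.88 to 2.3, and 14, 2.37 to 3.39). In Gcn2-/- mice Cdsn ran from -0.82 to -0.12 over 13 alternatives and B4galnt2, leaving out 1 library, from -0.535 to 0.789. The counts of all genes called moved more, and the cause was not tested. In Gcn2+/+ mice 110 became 203 without TMM, 648 with DESeq2, 72 with no filter and 201 with no sex term. It became 11 with only the 2 groups, 35 without both Schwann-high libraries and 47 to 600 leaving out 1 library. The 600 came without Gcn2+/+ Gars+/+ replicate 1, and leaving out any other library of the 2 groups gave 47 to 92. In Gcn2+/- mice 31 became 191 with DESeq2, 5 with only the 2 groups, 3 without the 3 Schwann-high libraries (chosen, as were the other 2, after seeing the data) and 16 to 66 leaving out 1. In Gcn2-/- mice 2 became 26 with DESeq2, 1 with only the 2 groups and 1 to 2 leaving out 1. For sex 14 became 22 with DESeq2 and 10 to 16 leaving out 1. The stress response count of 9 became 15 without TMM, 14 with DESeq2 (of 49 with an adjusted p) or no sex term, 6 with no filter and 2 with only the 2 groups. Where leaving libraries out left few in a group, the fit assumed that they vary like the other groups.

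The replicate block by title number gave 110 calls in Gcn2+/+, 4 in Gcn2+/- and 1 in Gcn2-/- mice, with Cdsn at 3.75, 2.3 and -0.52 and B4galnt2 at 4.45, 2.58 and 0.02. Under it the stress response counts were 6, 0 and 0, and 10, 2 and 1 motor neuron genes fell. Libraries of different groups that shared a number correlated at a median of 0.18 (-0.08 to 0.41, 32 pairs), against -0.02 (-0.43 to 0.36, 207 pairs) for others. The sex effect has no fit without the sex term. Depth limits B4galnt2, at 0 to 4 counts in its silent libraries. With Spearman in place of Pearson, 4 of 10 genes most like Cdsn and 5 of 10 most like B4galnt2 were kept.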
